A study of Mus musculus with 14 samples.

Results

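The genes described here are 10 transcription factors known for their part in alveolar macrophages: Pparg, Bhlhe40, Bhlhe41, Cebpa, Cebpb, Spi1, Klf4, Egr2, Irf4 and Irf8. They were taken by name from a table of 43432 mouse genes, and all 10 passed the filter on low values that left 17390 genes for testing. RNA-seq libraries had been made from lung cells of male 129S1 mice aged 10 to 12 weeks that carried SiglecF and CD11c, surface proteins that together mark alveolar macrophages, and that were sorted by high or low MHC class II (MHCII), the proteins that present peptides to helper T cells. MHCII-high and MHCII-low cells were each collected 2 weeks and 4 weeks after bleomycin (3 U/k by the label, into the trachea), with 3 libraries per group, and MHCII-low cells of mice given water served as controls with 2 libraries. Bleomycin breaks DNA and is used to provoke lung injury and scarring. Controls sorted as MHCII-high were not analysed here, so an effect of bleomycin on MHCII-high cells could not be measured. The labels name no genetic change, and they do not say whether libraries of 1 group came from separate mice or from pooled mice. P-values therefore measure the spread between these libraries, which may be technical.

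Alveolar macrophages live in the airspace, where they take up surfactant lipid and inhaled particles. GM-CSF and TGF-beta induce the nuclear receptor PPAR-gamma (Pparg) in them, which turns on genes of lipid uptake and storage. PU.1 (Spi1) opens chromatin in all macrophages together with C/EBP-alpha and C/EBP-beta (Cebpa, Cebpb). The repressors Bhlhe40 and Bhlhe41 are known to hold down c-Maf in alveolar macrophages and to let these cells renew themselves, Egr2 and Klf4 are zinc-finger factors of macrophage identity, and Irf4 and Irf8 are related interferon regulatory factors with roles in macrophages, dendritic cells and B cells.

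Of the 10 genes, 8 had an entry in the RefSeq promoter table for build GRCm38.p6. The bases just upstream of the start are shown for the related pair Irf4 and Irf8, of which 1 rose in MHCII-high cells, and for Cebpa, the lower gene whose call held in every setting tried. They are written 5' to 3' on the gene's strand, with matched motifs in capitals.
Irf4 (chr13:30748983-30749225, forward strand): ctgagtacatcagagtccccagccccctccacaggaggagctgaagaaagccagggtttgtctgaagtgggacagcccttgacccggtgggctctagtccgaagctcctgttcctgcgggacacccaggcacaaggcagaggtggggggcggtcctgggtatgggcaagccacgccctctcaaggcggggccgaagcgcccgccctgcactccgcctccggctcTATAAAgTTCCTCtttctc
Irf8 (chr8:120736108-120736357, forward strand): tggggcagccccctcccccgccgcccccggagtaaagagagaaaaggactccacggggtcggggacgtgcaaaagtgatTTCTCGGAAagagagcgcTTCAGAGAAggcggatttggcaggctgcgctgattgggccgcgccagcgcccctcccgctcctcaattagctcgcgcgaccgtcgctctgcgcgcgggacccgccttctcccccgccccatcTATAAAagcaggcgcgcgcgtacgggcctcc
Cebpa (chr7:35119043-35119292, forward strand): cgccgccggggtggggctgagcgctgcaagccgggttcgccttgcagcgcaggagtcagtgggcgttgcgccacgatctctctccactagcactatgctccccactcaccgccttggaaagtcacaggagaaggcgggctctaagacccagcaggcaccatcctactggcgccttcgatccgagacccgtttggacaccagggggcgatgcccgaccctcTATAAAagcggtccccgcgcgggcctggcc
The capitals mark TATAAA at -26 and GAGGAA, the core bound by PU.1 and read here on the opposite strand as TTCCTC, at -19 in Irf4. In Irf8 they mark TTCNNNGAA, the form bound by STAT factors, at -171 and -153, and TATAAA at -31. In Cebpa they mark TATAAA at -30. Positions are counted from the start site in the table to the leftmost base of the match. Over 32851 mouse promoter windows of 250 bases, searched on both strands, TATAAA was present in 12.4%, GAGGAA in 23.3% and TTCNNNGAA in 7.02%. Also searched were CACGTG, the E-box of Bhlhe40 and Bhlhe41 (6.02% of windows), TTGCNNAA of C/EBP (9.56%), GCGNGGGCG of Egr factors (4.7%) and the interferon-stimulated response element (2.98%), none of which is in the 3 stretches printed. The matches do not overlap each other. Such matches describe the letters and are no evidence of binding.

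All 10 are protein-coding genes. On the coordinates of the deposited table (build GRCm38), Pparg lies at chr6:115360951-115490399, Bhlhe40 at chr6:108660629-108666925, Bhlhe41 at chr6:145858243-145865558, Cebpa at chr7:35119293-35121928 and Cebpb at chr2:167688915-167690418. Spi1 lies at chr2:91082390-91115756, Klf4 at chr4:55527143-55532466, Egr2 at chr10:67535475-67542188, Irf4 at chr13:30749226-30766927 and Irf8 at chr8:120736358-120756694. Values are normalized counts, in which reads were scaled between libraries, and the reads recovered from them numbered 15106415 to 88059630 per library. The 10 genes rested on between 121 reads (Irf4 in its shallowest library) and 28509 reads (Bhlhe40). Mitochondrial ribosomal RNA took 3.12% to 28.99% of the reads, at 3.12% to 23.15% in MHCII-low and 8.12% to 28.99% in MHCII-high cells after bleomycin. The sort was visible in the transcripts: H2-Aa, an MHCII chain, was 5.24 ± 0.23 (SE) higher on the log2 scale in MHCII-high than in MHCII-low cells over both times, while Siglecf was 0.99 ± 0.11 lower but still at 3056.4 to 4358.1 normalized counts in each MHCII-high library.

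Divided by exon length, most of these factors were among the abundant transcripts of the cells. Median percentiles among the genes tested were 98.5 for Pparg, 98.4 for Bhlhe40, 98.3 for Spi1 and 97.9 for Egr2. Cebpa (93.5), Bhlhe41 (93.3), Klf4 (90.7) and Cebpb (84.3) came next, and Irf8 stood at 69.2. Irf4 had the lowest median percentile, 54.1, and the widest range, from 41.2 to 85.1. At the level of normalized counts per kilobase, the group means of Pparg ran from 2866 to 4787, those of Irf8 from 165.5 to 224.5 and those of Irf4 from 45.69 to 369.4.

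**Figure D1:**
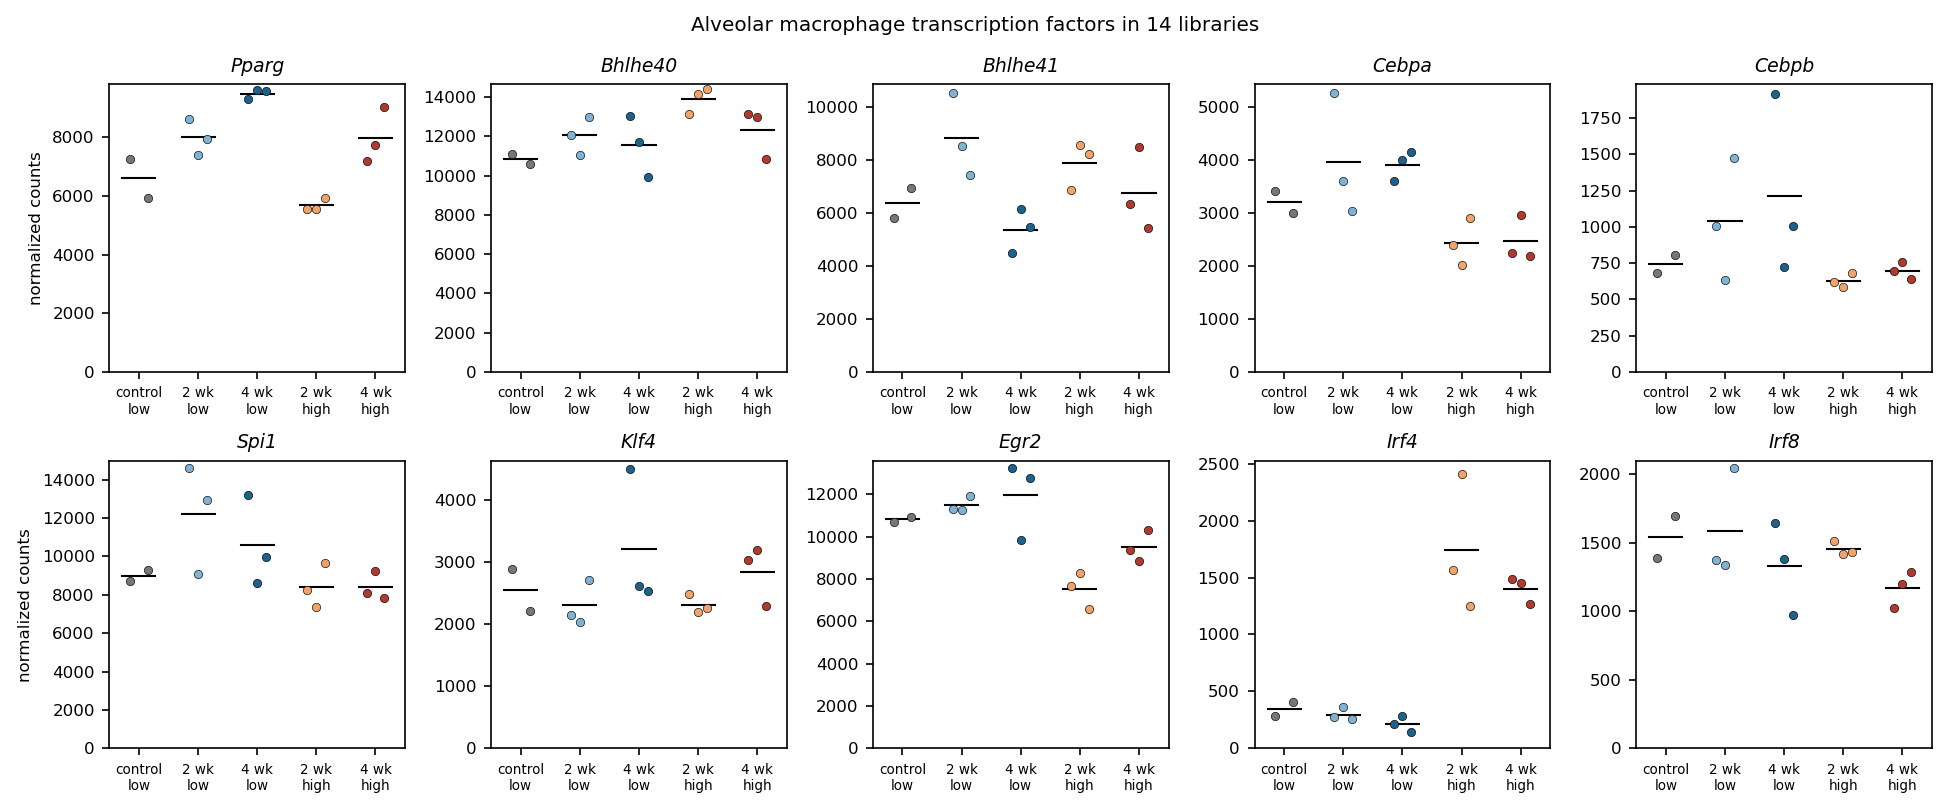
Normalized counts (linear axis from 0) of the 10 transcription factors in each library, with points for libraries and lines for group means; low and high stand for the MHCII level, and wk for weeks after bleomycin. Irf4 lies between 1246.7 and 2410 in the 6 MHCII-high libraries and between 147.1 and 402.9 in the 8 MHCII-low libraries, while Irf8 overlaps between MHCII-high and MHCII-low libraries at each time.

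Irf4 was the factor that rose. In control MHCII-low cells its 2 libraries held 280.1 and 402.9 normalized counts. MHCII-low cells held 270.7, 359.9 and 255.5 at 2 weeks after bleomycin, and 217.8, 281.4 and 147.1 at 4 weeks. MHCII-high cells held 1568.3, 2410 and 1246.7 at 2 weeks, and 1486, 1451.3 and 1267 at 4 weeks. Every MHCII-high library was above every MHCII-low library, controls included. Irf4 was 2.52 ± 0.30 (SE) higher on the log2 scale in MHCII-high cells at 2 weeks (limma, adjusted p = 2.3e-05), a ratio of group means of 5.9. At 4 weeks the difference was 2.74 ± 0.30 (limma, adjusted p = 4.8e-06), a ratio of 6.51, and the 2 differences were not told apart (interaction 0.22 ± 0.42, adjusted p = 0.99). Irf4 passed the threshold of an adjusted p of 0.05 in all 9 other settings and without any 1 library in these comparisons.

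Irf8, the related factor, did not follow. Control cells held 1387.1 and 1690 normalized counts, and MHCII-low cells 1371.5, 1339.2 and 2041.1 at 2 weeks and 1644.8, 1379.4 and 971.3 at 4 weeks. MHCII-high cells held 1509.6, 1414.7 and 1432.6 at 2 weeks and 1021.9, 1195.5 and 1285.3 at 4 weeks. High and low libraries overlapped at both times, and the mean difference over both times was -0.13 ± 0.16 on the log2 scale (limma, adjusted p = 0.69). Per exon length, the ratio of Irf4 to Irf8 within a library was 0.187 to 0.402 in the 8 MHCII-low libraries and 1.3 to 2.55 in the 6 MHCII-high libraries. Irf4 was thus the lower of the pair in every MHCII-low library and the higher in every MHCII-high one.

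Markers of dendritic cells, B cells and interstitial or monocyte-derived macrophages were higher in MHCII-high cells, as Irf4 was. Most of those of T and NK cells gave no call. Over both times 5% of all genes passed as higher and 2.21% as lower. Of 12 dendritic cell markers 8 passed the test as higher over both times and none as lower. Their summed level was 1513 to 3223 normalized counts in MHCII-high libraries, 106.6 to 346.8 in MHCII-low libraries after bleomycin and 341.8 to 452.6 in controls. Flt3, a growth factor receptor of dendritic cells, was at 91.7 to 280.8 in MHCII-high libraries and at 0 to 17.9 in MHCII-low ones, and Cd209a and Siglech were at 0 in all MHCII-low libraries after bleomycin. In MHCII-high cells Cd209a held 1.5, 0 and 0 at 2 weeks and 95.7, 139.6 and 8.5 at 4 weeks, and Siglech held 0 to 29.3 and 0 to 66.6. All 8 B cell markers passed as higher, with sums of 954.2 to 3962 in MHCII-high libraries, 55.4 to 2188 in MHCII-low libraries after bleomycin and 139.4 to 219 in controls. Pax5, the B lineage factor, was at 30.4 to 70.4 in MHCII-high libraries and at 0 to 2.2 in all others. The high MHCII-low sum belongs to replicate 1 at 4 weeks and came mostly from Ighm, at 2126.7. Pax5 and Cd79b were at 0 in all 4-week MHCII-low libraries. Markers of interstitial or monocyte-derived macrophages also rose, 7 of 9, with sums of 8260 to 29680 in MHCII-high libraries, 467.7 to 2646 in MHCII-low libraries after bleomycin and 374.4 to 397.7 in controls. Of 8 monocyte markers 7 were tested, 2 passed as higher and 0 as lower. Their sums were 4696 to 11940 in MHCII-high libraries, 2048 to 2732 in MHCII-low libraries after bleomycin and 2591 to 2641 in controls. Of 10 epithelial markers 3 passed as higher and 1 as lower. Of 8 T and NK cell markers 6 were tested, 1 passed as higher and 0 as lower, with a median log2 difference of -0.13. Markers of neutrophils, eosinophils, fibroblasts and endothelium gave no call. In such bulk samples more cells of another type and more RNA per cell cannot be told apart, and the part of these cells in the Irf4 difference was not tested.

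**Figure D2:**
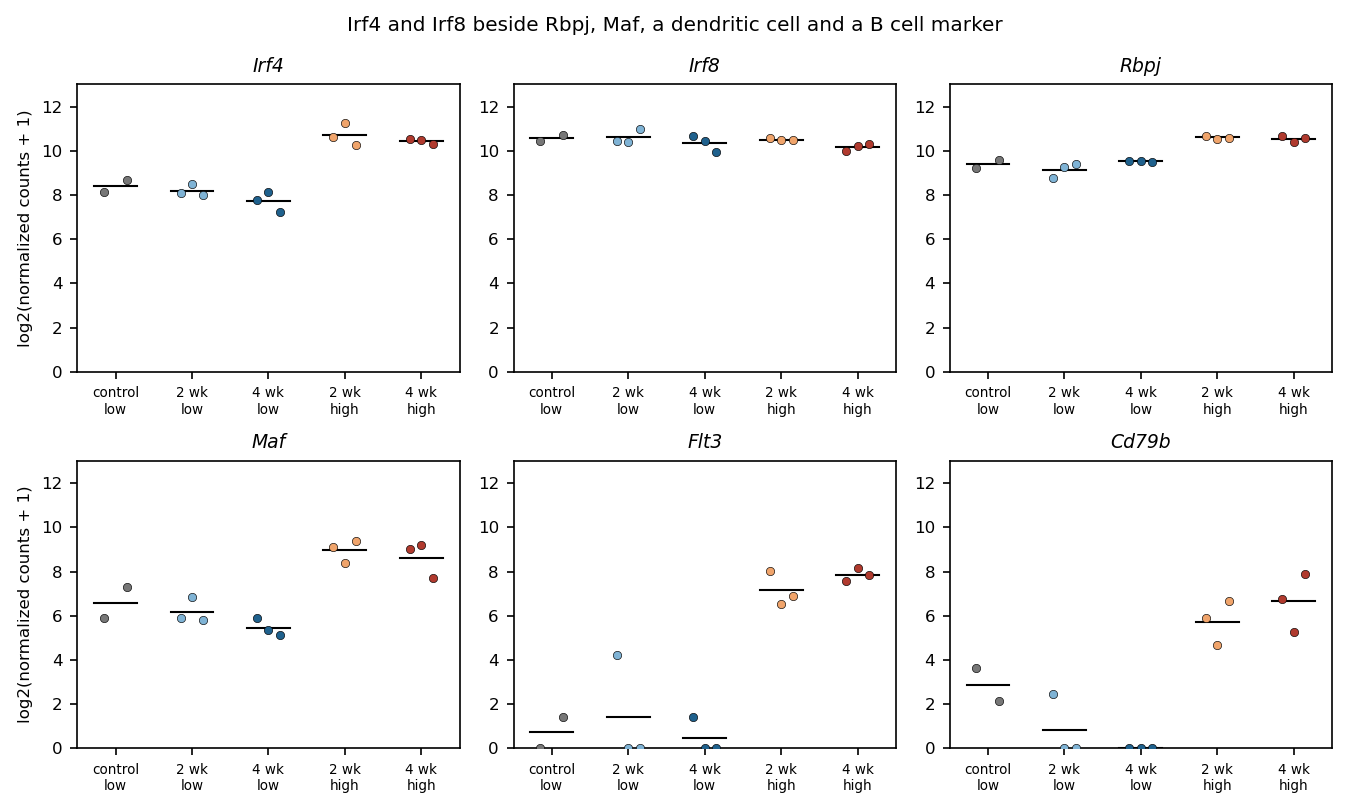
Irf4 and Irf8 beside the factors Rbpj and Maf, the dendritic cell marker Flt3 and the B cell marker Cd79b, as log2(normalized counts + 1) per library; points are libraries and lines group means, and values at 0 had no read. Irf4, Rbpj, Maf, Flt3 and Cd79b are higher in each MHCII-high library than in any MHCII-low library, and Irf8 is not.

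The genes whose pattern over the 14 libraries was most like that of Irf4, among 9984 genes with a mean of at least 100 normalized counts, were Cx3cr1 (Pearson r = 0.96), Nr4a3 (0.95) and Foxred2 (0.95). These values describe libraries that share their sort group, and no test was made. Cx3cr1, the fractalkine receptor of monocyte-derived macrophages, ran from 11.7 to 150.3 normalized counts in MHCII-low and from 843.5 to 2954 in MHCII-high libraries.

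Among the other 9 factors, 3 were lower in MHCII-high cells when both times were averaged, and none was higher. With Irf4 that made 4 of 10 past the threshold (1 higher, 3 lower), where 7.21% of all genes tested passed, 5% as higher and 2.21% as lower. At 2 weeks 2 of 10 passed, Irf4 higher and Egr2 lower (2.87% of all genes, 2.29% higher and 0.581% lower), and at 4 weeks Irf4 alone did (2.5% of all genes, 1.96% higher). The median log2 difference of the 10 over both times was -0.25, beside 0.017 over all genes. Higher genes were 69.4% of all those called over both times, but 57.6% with edgeR and 54.7% with TMM scaling before limma. The mean of both times is made of the same libraries as the 2 single times and is no separate evidence.

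**Figure D3:**
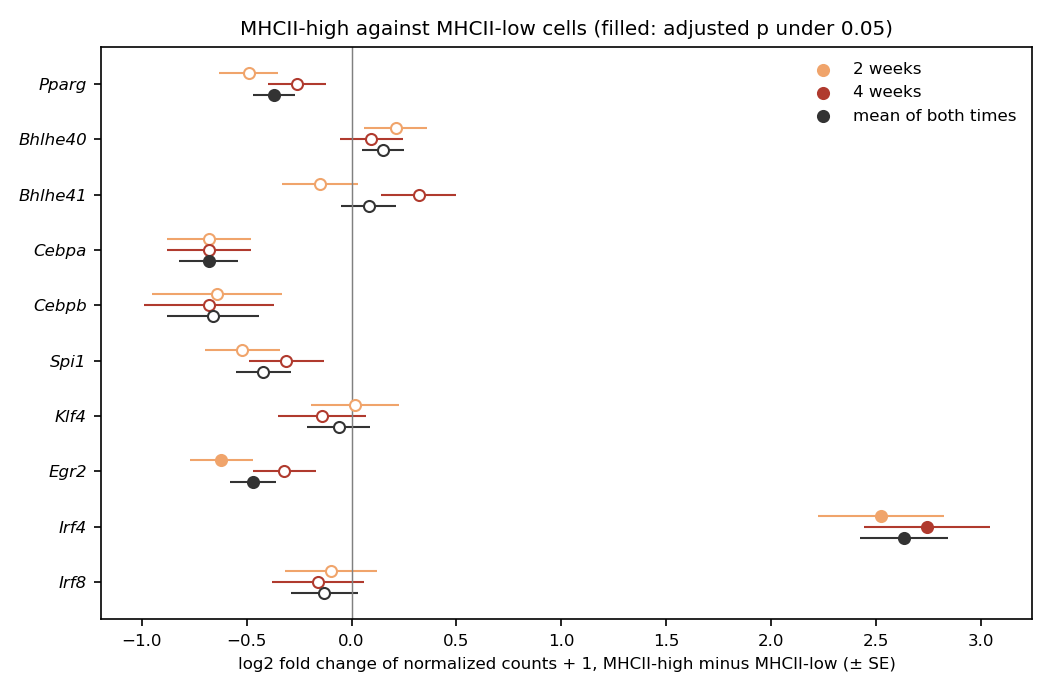
Log2 fold change of normalized counts + 1 between MHCII-high and MHCII-low cells, with SE, for each time after bleomycin and for their mean; filled points have a limma adjusted p under 0.05. Irf4 stands at 2.52 to 2.74, and Cebpa, Egr2 and Pparg are the 3 filled points below 0 for the mean of both times.

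Cebpa, which encodes the C/EBP factor needed for the myeloid lineage, fell most steadily. MHCII-low cells held 5257.9, 3597.2 and 3041.6 normalized counts at 2 weeks and 3600, 3988.3 and 4139.9 at 4 weeks, and controls 3404.6 and 2994.2. MHCII-high cells held 2391, 2011.1 and 2896.6 at 2 weeks and 2245.6, 2955.9 and 2182.3 at 4 weeks. All 6 MHCII-high libraries were below all 8 MHCII-low ones. Cebpa and Irf4 were the 2 members whose MHCII-high and MHCII-low libraries after bleomycin did not overlap over both times together, as was true of 3.29% of all genes. The difference was -0.68 ± 0.14 on the log2 scale over both times (limma, adjusted p = 0.004), and -0.68 ± 0.20 at each time, where it missed the threshold (adjusted p = 0.072 and 0.081). The call over both times held in all 9 other settings, with adjusted p-values up to 0.045, and without any 1 of the 12 libraries. At single times, Cebpa passed without 2-week MHCII-low replicate 3 (adjusted p = 0.035) and without 4-week MHCII-high replicate 2 (adjusted p = 0.047).

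Egr2, a zinc-finger factor induced by growth factor signals, held 11276.6, 11254.9 and 11910.3 normalized counts in MHCII-low cells at 2 weeks and 13233.9, 9854.1 and 12765.1 at 4 weeks, and 10699.4 and 10933.5 in controls. MHCII-high cells held 7655.6, 8298.3 and 6597.6 at 2 weeks and 9375.9, 8853.6 and 10330.9 at 4 weeks. The groups were apart at 2 weeks, as were those of 21.1% of all genes in either direction, and overlapped at 4 weeks. Egr2 fell by 0.47 ± 0.11 on the log2 scale over both times (limma, adjusted p = 0.0076), a call that held without any 1 library. At 2 weeks it fell by 0.62 ± 0.15 (limma, adjusted p = 0.025). That call was lost without MHCII-low replicate 1 (adjusted p = 0.072), replicate 2 (0.063) or replicate 3 (0.073), and without MHCII-high replicate 1 (0.084) or replicate 3 (0.1). With the share of mitochondrial ribosomal RNA as a covariate the adjusted p was 0.17 over both times and 0.24 at 2 weeks.

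Pparg held 8636.5, 7415.7 and 7962.4 normalized counts in MHCII-low cells at 2 weeks and 9312.2, 9603.1 and 9578.4 at 4 weeks, with 7261.7 and 5938.5 in controls. MHCII-high cells held 5546.6, 5569.6 and 5940 at 2 weeks and 7194.8, 7731.8 and 9022.5 at 4 weeks. High cells were below low cells within each time, but the 4-week MHCII-high cells reached the level of the 2-week MHCII-low cells. Libraries were apart in this way, in either direction, for 21.1% of all genes at 2 weeks and 16.4% at 4 weeks. The control mean, 6600.1, lay between the MHCII-high means of 5685.4 at 2 weeks and 7983 at 4 weeks, and below both MHCII-low means after bleomycin. Against these MHCII-low cells, Pparg was 0.37 ± 0.10 lower on the log2 scale in MHCII-high cells over both times (limma, adjusted p = 0.027). The differences at single times did not pass (adjusted p = 0.071 and 0.43). The call was lost without MHCII-low replicate 1 at 2 weeks (adjusted p = 0.069), MHCII-low replicate 2 (0.051) or 3 (0.06) at 4 weeks, MHCII-high replicate 1 (0.064) or 2 (0.062) at 2 weeks, or MHCII-high replicate 1 at 4 weeks (0.058). It was also lost with the mitochondrial ribosomal RNA share as a covariate (adjusted p = 0.15).

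Most markers of resident alveolar macrophages moved the same way as these 3 factors. Of 12 such markers 7 passed as lower in MHCII-high cells over both times (Marco, Siglecf, Car4, Krt79, Krt19, Chil3 and Fabp1), where 2.21% of all genes did. None passed as higher, and 5 were not called. Among these, Fabp4 had higher means in MHCII-high than in MHCII-low cells. They were 1356.5 against 975.5 normalized counts at 2 weeks and 841.3 against 674.3 at 4 weeks. Their summed level was 271500 to 356900 normalized counts in MHCII-high libraries, 352900 to 498300 in MHCII-low libraries after bleomycin and 298300 to 334100 in controls, and no marker was at 0 in any group. Marco, a scavenger receptor, fell by 1.55 ± 0.15 on the log2 scale (limma, adjusted p = 5.9e-07). The part of a different mix of cells in the lower Cebpa, Egr2 and Pparg was not tested.

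Spi1 and Cebpb had lower means in MHCII-high cells without passing the test. Spi1, which encodes PU.1, held 14603.7, 9098.8 and 12943.8 normalized counts in MHCII-low cells at 2 weeks and 13189.3, 8624.6 and 9946.2 at 4 weeks, against 7344 to 9652.3 in the 6 MHCII-high libraries and 8702.3 and 9291.7 in controls. The difference over both times was -0.42 ± 0.13 on the log2 scale (limma, adjusted p = 0.056). Cebpb, the C/EBP factor of inflammatory responses, held 1006.8, 632.2 and 1478.9 in MHCII-low cells at the earlier time and 1916.6, 724.5 and 1004.3 at the later time, against 587.4 to 760.9 in MHCII-high libraries and 678.6 and 803.2 in controls. Its difference was -0.66 ± 0.22 (limma, adjusted p = 0.074).

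In MHCII-low cells both genes were lowest in replicate 2 of each time, and over the 14 libraries they were the most alike pair of the 10 (r = 0.85, as a description). Mitochondrial ribosomal RNA took 18.32% and 23.15% of reads in these replicates 2, and 3.12% to 12.71% in the other 4 MHCII-low libraries after bleomycin. With that share as a covariate the differences were -0.27 for Spi1 and -0.38 for Cebpb, and neither passed. Spi1 passed in 5 of 9 other settings (limma, edgeR or DESeq2, adjusted p up to 0.45) and in 3 of 12 fits with 1 library left out. Cebpb passed in 3 of 9 such settings (adjusted p up to 0.54) and in 2 of 12 such fits. Both genes passed with edgeR (adjusted p = 0.026 for Spi1 and 0.029 for Cebpb), with DESeq2 (0.018 and 0.013) and with TMM scaling before limma (0.027 and 0.048). Without MHCII-low replicate 2 of 2 weeks the adjusted p was 0.016 for Spi1 and 0.026 for Cebpb, without that of 4 weeks 0.035 and 0.028, and Spi1 also passed without MHCII-high replicate 3 of 2 weeks (0.046).

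Bhlhe40, Bhlhe41 and Klf4 gave no call between MHCII-high and MHCII-low cells. Bhlhe40 held 13150.3, 14175.1 and 14426.4 normalized counts in MHCII-high cells at 2 weeks and 13145.1, 12987.8 and 10834.8 at 4 weeks, and 9956.9 to 13022.9 in the 6 MHCII-low libraries after bleomycin, a mean difference of 0.15 ± 0.10 on the log2 scale (limma, adjusted p = 0.43). The 2-week MHCII-high libraries all lay above the 2-week MHCII-low ones, a separation that 21.1% of all genes showed at that time in either direction. Bhlhe41 held 6893.1, 8583.4 and 8231 in MHCII-high cells at 2 weeks and 6339.4, 8491.2 and 5422.3 at 4 weeks. In MHCII-low cells it held 10560.6, 8531.9 and 7444.8 at 2 weeks, then 4481.6, 6167.7 and 5484.3 at 4 weeks, with 5824.7 and 6941.5 in controls. The mean difference between high and low cells was 0.081 ± 0.13 (limma, adjusted p = 0.79), and it turned to -0.019 with the mitochondrial covariate.

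Klf4, a factor of monocyte and macrophage differentiation, held 2193 to 3196 normalized counts in MHCII-high and 2036.6 to 4499.6 in MHCII-low libraries after bleomycin, with 2887.2 and 2202.2 in controls. Its mean difference was -0.062 ± 0.15 (limma, adjusted p = 0.87), turning to 0.048 with that covariate. A 2-fold change added to simulated libraries was found in 97% of genes for the mean of both times, 50% at 2 weeks and 60% at 4 weeks, so smaller changes at a single time could be missed.

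Bleomycin changed none of the 10 factors past the threshold in MHCII-low cells. Against the same 2 controls, limma called 0 of 10 at 2 weeks (1.91% of all genes passed) and 0 of 10 at 4 weeks (0.046%). The number with an unadjusted p under 0.05 was 1 of 10 at 2 weeks (Bhlhe41), where 12.7% of all genes had such a p, and 1 of 10 at 4 weeks (Pparg), where 6.12% did, and edgeR and DESeq2 called 0 at both times. Bhlhe41 was 0.46 ± 0.21 on the log2 scale above control at 2 weeks (adjusted p = 0.35) and -0.25 ± 0.21 at 4 weeks (adjusted p = 0.94). Pparg was 0.28 ± 0.16 above control at 2 weeks (adjusted p = 0.5) and 0.53 ± 0.16 at 4 weeks (adjusted p = 0.5), with all libraries of both times above both controls. Such separation from the controls was seen in 35.3% of all genes at 2 weeks and 27.4% at 4 weeks. Irf4 was at -0.20 ± 0.33 and -0.69 ± 0.33 (adjusted p = 0.87 and 0.81), and Egr2 at 0.086 ± 0.17 and 0.13 ± 0.17 (adjusted p = 0.9 and 0.96).

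Between 2 and 4 weeks limma called 0 of 10 in MHCII-low cells (0.857% of all genes) and 0 of 10 in MHCII-high cells (1.07%), with 1 and 2 of 10 at an unadjusted p under 0.05, which 7.48% and 14% of all genes had. In MHCII-low cells Bhlhe41 differed by -0.72 ± 0.18 on the log2 scale (limma, adjusted p = 0.082), with every 4-week library below every 2-week one. DESeq2 called it (adjusted p = 0.017) and edgeR did not. In MHCII-high cells Pparg was at 0.48 ± 0.14 (limma, adjusted p = 0.1), with every 4-week library above every 2-week one, and again DESeq2 called it (adjusted p = 0.017) and edgeR did not. Libraries of the 2 times did not overlap for 14% of all genes in MHCII-low and 15% in MHCII-high cells. For the interaction, which asks whether the gap between high and low cells changed with time, limma called 0 of 10 and 0 of all genes (0%), with 0 members and 987 genes (5.68%) at an unadjusted p under 0.05. By DESeq2 56 genes passed, none of the 10 among them.

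Other macrophage transcription factors gave a setting for these values. Of 75 listed, 73 were tested and 15 passed over both times, 14 higher and 1 lower in MHCII-high cells (median log2 difference 0.045, beside 0.017 over all genes). Maf, a factor that Bhlhe40 and Bhlhe41 are known to repress, was 2.97 ± 0.37 higher on the log2 scale (limma, adjusted p = 1.6e-05), and Runx3, a Runt-family factor, 4.71 ± 0.65 (adjusted p = 5.9e-05). Maf held 335.9 to 662.9 normalized counts in MHCII-high cells at 2 weeks and 205.7 to 578.9 at 4 weeks, against 34.1 to 155 in the 8 MHCII-low libraries. Rbpj, the mediator of Notch signals, was 1.25 ± 0.15 higher (adjusted p = 1.1e-05) and Tcf4 1.16 ± 0.15 (adjusted p = 1.8e-05). The single lower factor was Batf, a partner of Irf4 on DNA, at -0.72 ± 0.19 (adjusted p = 0.019).

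**Figure D4:**
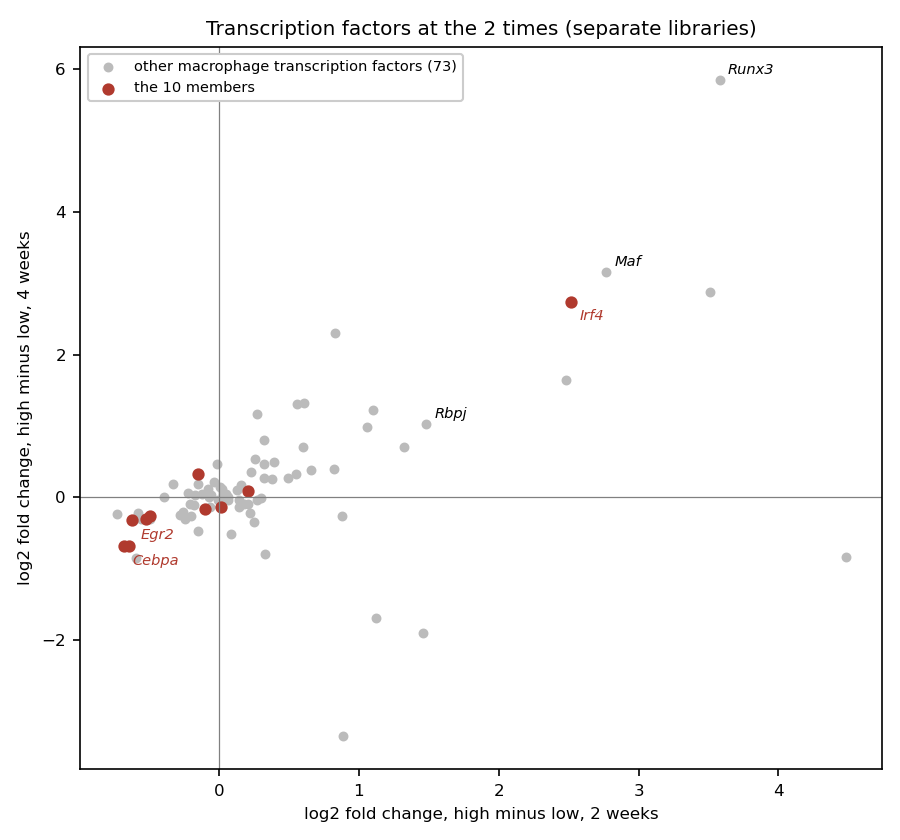
Log2 fold change between MHCII-high and MHCII-low cells at 2 weeks (horizontal) and 4 weeks (vertical), which use separate libraries, for the 10 factors (red) and 73 other macrophage transcription factors (grey). Irf4 lies at 2.52 and 2.74, near Maf at 2.77 and 3.16, while the other 9 of the 10 lie between -0.68 and 0.32 on both axes.

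Of 20 target genes of PPAR-gamma, 5 passed as lower in MHCII-high cells over both times (2.21% of all genes did) and 1 as higher (5%). A difference above 0 was seen for 4, and the median log2 difference was -0.35 beside 0.017 over all genes. Cidec, a lipid droplet protein, fell by 1.44 ± 0.16 (limma, adjusted p = 4.9e-06), and Fabp1, a fatty acid binding protein, by 1.32 ± 0.21 (adjusted p = 0.00031). Plin2, which coats lipid droplets, fell by 0.47 ± 0.11 (adjusted p = 0.011), while Scd1, the stearoyl-CoA desaturase, rose by 1.07 ± 0.31 (adjusted p = 0.038). Fabp4, a further fatty acid binding protein, was not called, with higher means in MHCII-high cells at both times. Fabp1 and Fabp4 are also in the resident macrophage list.

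Genes of the IL-4 and STAT6 response, a pathway in which Irf4 and Egr2 act, were more often higher than lower in MHCII-high cells. Of 16 listed, 15 were tested, 6 passed as higher over both times (5% of all genes did) and 1 as lower (2.21%), with a median of 0.27. The chemokines Ccl22 (4.13 ± 0.41, limma adjusted p = 6.2e-07) and Ccl17 (4.84 ± 0.72, adjusted p = 0.00014) and the lectin Mgl2 (5.98 ± 0.77, adjusted p = 2.3e-05) rose, and dendritic cells express all 3 of them. Chil3, a chitinase-like protein abundant in resident alveolar macrophages, fell by 0.47 ± 0.14 (adjusted p = 0.043).

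The lists tied to the remaining factors are read beside the 5% of all genes that passed as higher over both times and the 2.21% that passed as lower. Among 16 target genes of PU.1 and C/EBP 2 rose over both times and none fell: the integrin subunit Itgam, by 2.77 ± 0.21 (limma, adjusted p = 2e-08), and the receptor Ptafr, by 0.83 ± 0.14 (adjusted p = 0.00048). Their median was 0.07. Of 16 genes of GM-CSF, TGF-beta and M-CSF signalling 15 were tested and 4 rose, Smad7, Csf1, Smad3 and Jak2, with none falling and a median of 0.062 beside 0.017 over all genes. By limma 0 of 13 basic helix-loop-helix partners and clock genes passed (median 0.17), and 1 of 13, Rora, had an unadjusted p under 0.05, which 21.2% of all genes had. At 2 weeks in MHCII-low cells, where none of the 10 factors passed against control, 5 of the 16 PU.1 and C/EBP targets did as higher (1.91% of all genes passed in either direction), among them the scavenger receptor Msr1 by 1.68 ± 0.25 (limma, adjusted p = 0.00035).

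Genes most like each of the other factors over the 14 libraries, again as a description, were Plet1 for Cebpa (r = 0.94), Mapre3 for Pparg (0.92), Chst15 for Egr2 (0.91), Fxyd5 for Spi1 (0.94) and Zyx for Cebpb (0.96). They were Atp2a3 for Bhlhe40 (0.89), Ccdc122 for Bhlhe41 (0.94), Ubald1 for Klf4 (0.85) and Dot1l for Irf8 (0.82), so Irf8 had the loosest match. Within the 10, the lowest values were those of Irf4 with Cebpa (r = -0.84) and with Egr2 (-0.82), pairs that differ in opposite directions between the sort groups.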

How the data were processed

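RNA was measured by RNA-seq after whole-transcriptome amplification and transposase tagging, per the labels' protocols, with no molecular identifiers described, from cells sorted on either of 2 sorter models. The submitters' processing notes name STAR, DESeq2 and the build mm10, without roles. The deposited values are normalized counts, a signal the authors made by scaling gene counts per library, per the file headers. From the values, each library holds whole multiples of 1 step (0.39 to 2.24 normalized counts, the worth of 1 read), and dividing by it gave whole reads for 100% of low values within the rounding of 0.05, which blurs the small step of control replicate 1. Against the GENCODE annotation of GRCm38, 90.2% of 42462 common genes had the identical span, as did 9 of the 10 members (Irf4 ends differently). For 652 genes the table gave no symbol.

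The design named edgeR for counts and limma for normalized values, so limma 3.58.1 with a trend (R 4.3.3) was run on log2(value + 1), with all 14 libraries and 1 coefficient per group. Tested genes reached 10 normalized counts in 2 or more libraries, p-values were adjusted by Benjamini-Hochberg over all 17390 within each of 8 comparisons, and the threshold was 0.05. Adjusted p-values come from limma where no tool is given. Fold changes on this scale understate low genes, and ± after a log2 value is its SE. The alternatives were edgeR 4.0.16 and DESeq2 1.42.0 on recovered reads, TMM, other pseudocounts and filters, a covariate, a replicate block and leaving out each library. The method was tested on simulated data. Named are the 10 members, from each list up to 4 genes with the smallest p among those past the threshold, cell markers, the sort markers, and for each member up to 3 genes with the highest r. The members and lists were chosen with earlier results of these data known. Cdh1, Chil3, Fabp1, Nr1h3 and others stand in more than 1 list. Batf, Scd1 and Chil3 fall outside these rules and were named after their values were seen. Some results that meet these rules are not reported here.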

Additional observations from a re-analysis of the deposited data

How the results depend on the processing

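The number of the 10 factors past the threshold between MHCII-high and MHCII-low cells was 2 at 2 weeks, 4 with DESeq2 and with TMM before limma, 1 with the mitochondrial covariate, and 1 to 2 when 1 library was left out. At 4 weeks it was 1, 2 with DESeq2, and 1 to 2 with 1 library left out. Over both times it was 4, 6 with edgeR, with DESeq2 and with TMM before limma, 5 with the filter of 50 normalized counts, 2 with the mitochondrial covariate, and 3 to 6 with 1 library left out. DESeq2 called 1 factor between times in MHCII-low and 1 in MHCII-high cells, where limma called 0. Of 630 values of single factors under other settings 598 kept direction and side of the threshold, 3 lost the call, 16 gained one and 13 changed sign, none of the latter called. Signs changed for Klf4 at 2 weeks high against low (-0.064 with edgeR, -0.0028 with DESeq2, -0.051 with TMM), over both times for Bhlhe41 (-0.019) and Klf4 (0.048) with the covariate, for Egr2 at 2 weeks against control (-0.034, covariate), for Cebpa between times in MHCII-low (-0.028 edgeR, -0.026 DESeq2, -0.0027 TMM) and MHCII-high cells (-0.0051 edgeR), and for Spi1 in MHCII-high cells (-0.024 edgeR, -0.011 TMM, -0.065 covariate). The cause was not tested.

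Leaving out 1 library gave 460 values, of which 29 changed sign, none called. Where a sign changed, all values of that factor and comparison with 1 library left out, changed or not, are given as a range. They ranged from -0.064 to 0.14 (Klf4) and -0.20 to 0.099 (Irf8) at 2 weeks high against low. At 4 weeks they ranged from -0.29 to 0.13 (Klf4), -0.37 to 0.006 (Irf8) and -0.0094 to 0.18 (Bhlhe40), and over both times from -0.14 to 0.073 (Klf4) and -0.0085 to 0.15 (Bhlhe41). Against control they ranged from -0.34 to 0.051 (Klf4), -0.18 to 0.16 (Irf8) and -0.46 to 0.06 (Irf4) at 2 weeks and from -0.0062 to 0.19 (Bhlhe40) at 4 weeks. Between times they ranged from -0.16 to 0.24 (Cebpa), -0.20 to 0.50 (Cebpb), -0.033 to 0.18 (Egr2) and -0.15 to 0.039 (Bhlhe40) in MHCII-low cells, and from -0.09 to 0.11 (Spi1) and -0.12 to 0.15 (Cebpa) in MHCII-high cells.

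The labels do not say that a number marks a shared mouse, so the numbers were not taken as pairs. Deviations of same-numbered libraries from their group means had r from -0.06 to 0.11, a range that includes pairs across times and with controls. For MHCII-high and MHCII-low libraries of the same time r was 0.01 to 0.11. With so few libraries per group, these values cannot settle whether the libraries were paired. The replicate block setting paired MHCII-high and MHCII-low libraries of the same time and number, with controls left out. It called 2, 1 and 5 factors at 2 weeks, at 4 weeks and over both times, the addition being Spi1 (adjusted p = 0.047). In comparisons with control and between times the number alone was the block. This setting changed no other call of the 10. Over all genes, DESeq2 called 1055 at 2 weeks, 898 at 4 weeks and 2122 over both times, beside 499, 434 and 1254, and the covariate left 207 and 500 at 2 weeks and over both times. Higher genes were 79.8% of calls at 2 weeks, and 68.8% with edgeR. Irf4 rests on as few as 121 reads, so its low levels carry the largest counting error of the 10.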
